A study of Mus musculus with 4 samples.

Results

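The 47 genes described here build ribosomes: they comprise subunits and cofactors of RNA polymerase I and the nucleolar proteins that modify, process and assemble ribosomal RNA (rRNA). They were chosen by name from the deposited count table, in which all 47 of 47 symbols were found among 21470 genes, and 44 of them were among the 6943 genes with enough counts to be tested. By role they fall into 6 RNA polymerase I genes, 8 genes of small nucleolar ribonucleoproteins (snoRNPs), 6 abundant or regulatory nucleolar proteins, 12 small-subunit factors and 15 large-subunit factors. The study compared gene expression in the tissues of the mouse blastocyst at times labelled E4 and D10. Its subject was diapause, the reversible arrest of the embryo before implantation. All embryos were wild type, from B6D2F1 males crossed with ICR females. The D10 ICM group held the inner cell mass (ICM), on the embryonic side, and the D10 TE group the trophectoderm (TE), on the extra-embryonic side, of embryos at the time labelled D10. The E4 ICM and E4 TE groups were the same tissues at the time labelled E4. Each group held 5 barcoded libraries, numbered 1 to 5, and the tissues had been separated with the HTlasr system.

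In every nucleus RNA polymerase I transcribes the rRNA gene repeats into a long precursor inside the nucleolus. Box C/D snoRNPs methylate this precursor and box H/ACA snoRNPs convert uridines in it to pseudouridine, while large complexes cut it and fold it with ribosomal proteins into the small and large subunits. The pathway is among the most costly in a growing cell and is a textbook target of nutrient and growth-factor signalling, and diapause is known as a state of low growth.

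BRB-seq reads the 3′ ends of polyadenylated RNA, so the values are levels within a gene across libraries, and levels of different genes are not compared. Totals ranged from 144276 to 1010354 counts per library, and mitochondrial genes took 7.86% to 18.94% of them. The libraries of a group were mixed before amplification, so each group was 1 pool and pool and group cannot be told apart. E4 libraries 1 and 2 came from litters with a zona pellucida, and no other library did. The labels' protocols speak of diapause embryos at both times, while the authors' barcode list marks E4 as before diapause and gives D10 a day number other than its label. By the authors' barcode list each library of a group came from a litter of its own. The p-values thus measure the spread between litters within a group. ICM and TE libraries with the same number shared a litter within a time. The fit behind the p-values does not use this pairing, and another fit with litter as a replicate block does. How many embryos went into a library is not given in the sources used here. The labelled tissues were checked against lists of 12 markers per lineage. In the ICM against the TE, of 11 epiblast markers tested 9 were higher at D10, and 10 were higher and 1 lower at E4. Of 11 primitive endoderm markers tested 9 were higher at D10, and 10 were higher and 1 lower at E4. Of 12 trophectoderm markers 1 was higher and 10 lower at D10, and 8 were lower at E4. Sox2, an epiblast gene, had 470 counts in the D10 ICM, 0 in the D10 TE, 421 in the E4 ICM and 1 in the E4 TE. Gata3, a trophectoderm gene, averaged 646 ± 181 CPM (counts scaled to library size, mean ± SD) in the D10 ICM, 2063 ± 231 CPM in the D10 TE, 408 ± 49.9 CPM in the E4 ICM and 1573 ± 371 CPM in the E4 TE (n = 5 each). Some markers went against their lists: Dppa5a of the epiblast list averaged 490 CPM in the D10 ICM, 594 CPM in the D10 TE, 834 CPM in the E4 ICM and 2250 CPM in the E4 TE. Dab2 of the primitive endoderm list averaged 1691 CPM in the D10 ICM, 2595 CPM in the D10 TE, 356 CPM in the E4 ICM and 952 CPM in the E4 TE, and Elf5 of the trophectoderm list averaged 161 CPM in the D10 ICM and 69.0 CPM in the D10 TE. Whether the ICM libraries hold RNA of trophectoderm cells was not tested. Fewer cells of a type and less RNA per cell cannot be told apart in such bulk libraries.

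Summed over the 47 genes, ribosome biogenesis RNA was highest in the E4 ICM. The sum was 7774 to 11128 CPM in the D10 ICM and 5644 to 6738 CPM in the D10 TE, against 10460 to 14598 CPM in the E4 ICM and 5867 to 6888 CPM in the E4 TE (5 libraries each). At both times every ICM library lay above every TE library. The D10 ICM averaged 8972 ± 1287 CPM and the E4 ICM 12020 ± 1579 CPM (SD, n = 5 each), and their ranges overlapped through D10 ICM library 1. The TE averaged 6204 ± 454 CPM at D10 and 6341 ± 468 CPM at E4. Npm1 and Ncl made up a large part of these sums, and without them the order of the groups was alike, with 4600 ± 644 CPM in the D10 ICM, 3285 ± 380 CPM in the D10 TE, 5932 ± 656 CPM in the E4 ICM and 3434 ± 141 CPM in the E4 TE. These sums are descriptions and carry no test.

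**Figure D1:**
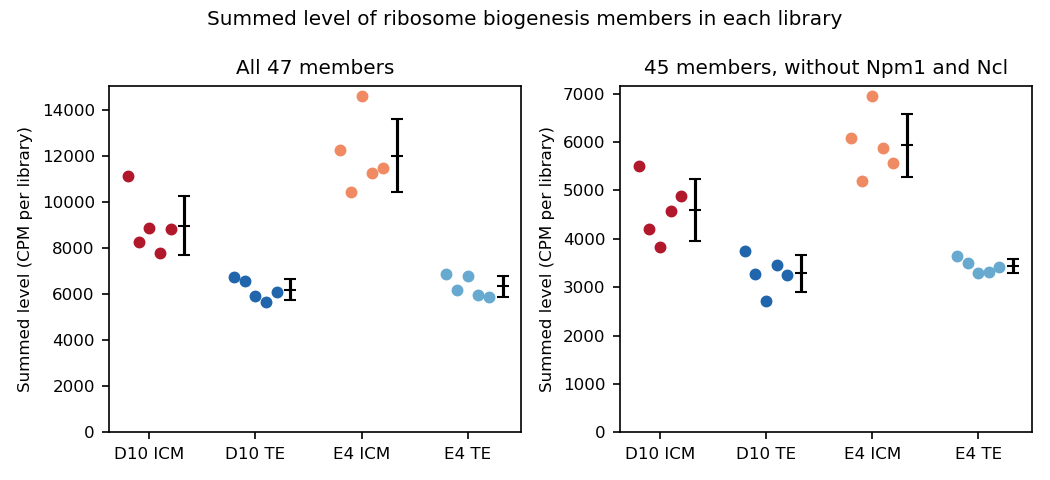
Summed level of the ribosome biogenesis genes (CPM per library) in each of the 20 libraries, by group, for all 47 genes (left) and for the 45 genes other than Npm1 and Ncl (right). Points are libraries and bars the group mean ± SD. The E4 ICM libraries lie at 10460 to 14598 CPM on the left, above all TE libraries. The D10 ICM libraries lie at 7774 to 11128 CPM, also above all TE libraries, and library 1 of that group lies within the E4 ICM range.

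At E4, ribosome biogenesis genes were higher in the ICM than in the TE as a group. Of 44 genes tested 28 were higher and 0 lower (63.6% of those tested), while 15.8% of all 6943 genes tested were higher in the ICM and 15.4% lower, 31.2% in either direction. The median log2 difference, ICM minus TE, was 0.89 over the 44 genes and 0.03 over all genes. In 21 of the 44 every ICM library lay above every TE library, which was so for 10.8% of all genes. At D10 11 of 44 were higher in the ICM and 0 lower (25%), with 12.9% of all genes higher and 12.6% lower, 25.5% in either direction. The median was 0.45 over the 44 genes and 0.01 over all genes, and 7 of the 44 had non-overlapping groups with the ICM above, against 8.05% of all genes. At an unadjusted p under 0.05, too, 0 of the 44 genes were lower in the ICM at either time, and DESeq2 and limma voom likewise called 0. Without scaling between libraries the E4 median of all genes was 0.19 and that of the 44 genes 1.05, with 34 higher, and the E4 calls over all genes were 1400 higher and 852 lower, against 1094 and 1071.

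Of 5 RNA polymerase I genes tested 4 were higher in the ICM than the TE at E4 (80%, against 15.8% of all genes). At D10 2 of 5 were higher in the ICM (40%, against 12.9% of all genes). Polr1a, the largest catalytic subunit (ENSMUSG00000049553, GRCm38 chromosome 6, 71909053 to 71984935, plus strand), measured 23.8, 16.5, 22.2, 17.8 and 37.1 CPM in the D10 ICM, 31.0, 16.3, 20.1, 31.4 and 27.3 CPM in the D10 TE, 57.1, 54.8, 83.4, 80.6 and 51.6 CPM in the E4 ICM and 46.0, 45.6, 19.5, 17.9 and 50.1 CPM in the E4 TE. Its E4 ICM libraries were all higher than those of the other 3 groups, by a narrow margin over 3 of the E4 TE libraries. The log2 difference between ICM and TE at E4 was 1.04 ± 0.32 (SE, adjusted p = 0.0155), and it did not pass without E4 ICM library 3 or 4 or E4 TE library 3 or 4 (adjusted p up to 0.0836). Polr1b, the second-largest subunit (ENSMUSG00000027395, chromosome 2, 129100995 to 129126594, plus strand), measured 57.0, 13.2, 38.8, 15.7 and 27.9 CPM in the D10 ICM, 27.4, 24.5, 30.1, 22.7 and 35.5 CPM in the D10 TE, 63.4, 81.0, 48.6, 72.4 and 73.1 CPM in the E4 ICM and 28.8, 41.5, 14.6, 23.9 and 21.5 CPM in the E4 TE. The E4 ICM and E4 TE libraries did not overlap, and the log2 difference was 1.41 ± 0.35 (SE, adjusted p = 0.0032). The last 400 bases of Polr1b hold a stretch of at least 81 bases, the length of an insert read, that is at least 95% identical to sequence in 56 other annotated genes, so its counts are uncertain. At D10 neither of the catalytic subunits passed, with means of 23.5 ± 8.2 CPM in the ICM and 25.2 ± 6.8 CPM in the TE for Polr1a and 30.5 ± 18.0 CPM in the ICM and 28.0 ± 5.0 CPM in the TE for Polr1b.

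Polr1c and Rrn3 differed between the tissues at both times. Polr1c is a subunit that RNA polymerases I and III share, and Rrn3 is the factor that brings RNA polymerase I to the rRNA promoter. Polr1c was higher in the ICM by a log2 difference of 1.02 ± 0.24 at D10 and 0.96 ± 0.25 at E4 (adjusted p = 0.00208 and 0.00449). Rrn3 was higher in the ICM by 1.00 ± 0.25 at D10 and 0.80 ± 0.26 at E4 (adjusted p = 0.0037 and 0.0227). At D10 Rrn3 lay at 112 to 395 CPM in the ICM libraries and 91.8 to 103 CPM in the TE libraries, with no overlap. The E4 call of Rrn3 ended without E4 ICM library 1 or 4 or E4 TE library 1, 3 or 4 (adjusted p up to 0.0754). Ubtf, the factor that binds along active rRNA gene repeats, was alone among the 5 in that it passed in neither tissue comparison: at E4 it lay at 82.7 to 153 CPM in the ICM and 112 to 200.3 CPM in the TE.

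Of 8 snoRNP genes tested 4 were higher in the ICM than the TE at E4 (50%, against 15.8% of all genes). At D10 3 of 8 were higher in the ICM (37.5%, against 12.9% of all genes). Nolc1, a chaperone of snoRNPs in the nucleolus (ENSMUSG00000015176, chromosome 19, 46075863 to 46085530, plus strand), measured 394, 193, 244, 297 and 251 CPM in the D10 ICM, 194, 128, 146, 154 and 153 CPM in the D10 TE, 380.4, 214, 500.3, 310.2 and 383 CPM in the E4 ICM and 104, 91.2, 134, 116 and 157 CPM in the E4 TE. The ICM libraries of each time were above the TE libraries of the same time, except that D10 ICM library 2 was just under D10 TE library 1. The log2 difference was 0.82 ± 0.22 (SE, adjusted p = 0.00747) at D10 and 1.58 ± 0.24 (SE, adjusted p = 1.66e-05) at E4. Rrp9, a protein of the U3 snoRNP that guides early cuts (ENSMUSG00000041506, chromosome 9, 106475963 to 106485424, plus strand), measured 133, 104, 49.9, 99.7 and 51.1 CPM in the D10 ICM, 69.4, 44.9, 74.2, 89.1 and 46.4 CPM in the D10 TE, 146, 99.2, 114, 106 and 112 CPM in the E4 ICM and 23.0, 16.6, 36.5, 19.9 and 42.9 CPM in the E4 TE. All E4 TE libraries were lower than every library of the other 3 groups. At E4 the log2 difference of Rrp9 was 2.06 ± 0.31 (SE, adjusted p = 1.94e-05), the largest of the 44 genes, while at D10 it did not pass.

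Of the core proteins of the 2 snoRNP classes some passed and others did not. Of the box C/D core, Nop58 was higher in the E4 ICM by 0.84 ± 0.22 (SE, adjusted p = 0.00496), but Nop56 lay at 273 to 420.5 CPM in the E4 ICM and 275 to 572 CPM in the E4 TE and did not pass. Fbl, fibrillarin, the methyltransferase of that class, passed in neither tissue comparison, with 128 ± 12.9 CPM in the E4 ICM and 82.8 ± 20.6 CPM in the E4 TE. Of the box H/ACA core, Gar1 was higher in the ICM at both times, by 0.88 ± 0.27 at D10 and 1.34 ± 0.29 at E4 (adjusted p = 0.0189 and 0.000837). Dkc1, dyskerin, the pseudouridine synthase, was higher in the ICM at D10 by 0.96 ± 0.26 (SE, adjusted p = 0.00623), and it did not pass at E4. The D10 call of Gar1 ended without D10 ICM library 2 or 4 or D10 TE library 1 or 3 (adjusted p up to 0.061).

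The abundant nucleolar proteins Ncl and Npm1 were higher in the ICM at both times. Ncl, nucleolin, a chromatin and rRNA-binding protein (ENSMUSG00000026234, chromosome 1, 86344719 to 86359400, minus strand), measured 1554, 892, 1213, 1002 and 1017 CPM in the D10 ICM, 841, 632, 794, 811 and 626 CPM in the D10 TE, 1724, 1285, 2360.3, 1319 and 1613 CPM in the E4 ICM and 852, 705, 621, 757 and 629.6 CPM in the E4 TE. The ICM libraries were all above the TE libraries of the same time. The log2 difference of Ncl was 0.61 ± 0.20 (SE, adjusted p = 0.0247) at D10 and 1.22 ± 0.20 (SE, adjusted p = 5.54e-05) at E4, and the D10 call ended without D10 ICM library 1 or D10 TE library 2 or 5 (adjusted p up to 0.0937). Npm1, nucleophosmin, a histone and ribosome chaperone (ENSMUSG00000057113, chromosome 11, 33152287 to 33163206, minus strand), measured 4069, 3162, 3833, 2187 and 2930.1 CPM in the D10 ICM, 2152, 2691, 2433, 1373 and 2243 CPM in the D10 TE, 4463, 3973, 5293, 4065 and 4326 CPM in the E4 ICM and 2394, 1982, 2863, 1908 and 1824 CPM in the E4 TE. At E4 the tissues did not overlap, and at D10 they did, since D10 ICM library 4 lay within the TE range. The log2 difference of Npm1 was 0.57 ± 0.21 (SE, adjusted p = 0.0478) at D10 and 1.01 ± 0.21 (SE, adjusted p = 0.000721) at E4. The D10 call of Npm1 held without D10 ICM library 4 or 5, D10 TE library 2 or E4 TE library 3 and ended without any other single library (adjusted p up to 0.134).

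Mybbp1a and Ddx21 also differed between the tissues. Mybbp1a, a nucleolar regulator of rRNA transcription and processing (ENSMUSG00000040463, chromosome 11, 72441355 to 72451768, plus strand), measured 181, 61.0, 83.1, 84.0 and 116 CPM in the D10 ICM, 94.9, 55.1, 44.1, 61.1 and 65.6 CPM in the D10 TE, 209, 138, 229, 153 and 219 CPM in the E4 ICM and 74.8, 70.5, 70.6, 53.8 and 78.7 CPM in the E4 TE. The E4 ICM libraries stood clear of all TE libraries. The log2 difference at E4 was 1.46 ± 0.27 (SE, adjusted p = 0.000191), and at D10 it did not pass (adjusted p = 0.0739), but passed with litter as a replicate block (log2 0.64, adjusted p = 0.0252). Ddx21, an RNA helicase of the nucleolus, was higher in the ICM by 0.57 ± 0.19 at D10 and 0.79 ± 0.19 at E4 (adjusted p = 0.0263 and 0.00286). The D10 call of Ddx21 ended without D10 ICM library 1 or D10 TE library 3 or 4 (adjusted p up to 0.0799). Dhx33, another helicase, passed in neither tissue comparison. Gnl3, nucleostemin, a nucleolar GTPase, passed in neither without the block (adjusted p = 0.0829 at D10 and 0.051 at E4) and in both with it (log2 0.60 and 0.63, adjusted p = 0.0488 and 0.0427).

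**Figure D2:**
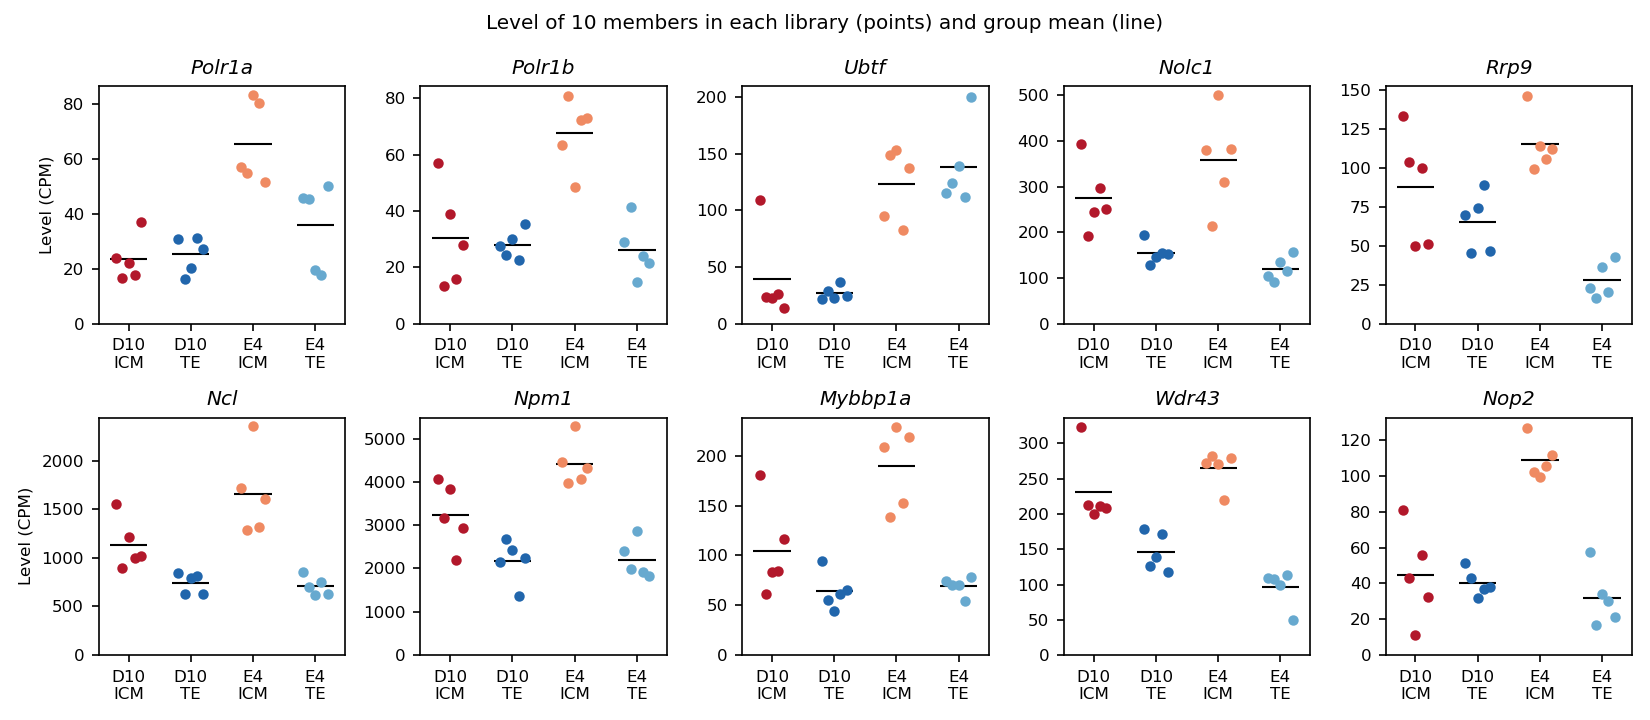
Level (CPM) of 10 ribosome biogenesis genes in each library (points), with the group mean as a line and 1 panel per gene. In the E4 ICM the levels of Polr1a, Polr1b, Rrp9, Nop2 and Mybbp1a stand above those of the E4 TE, and Ubtf is at 82.7 to 200.3 CPM in both E4 tissues.

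Of 11 small-subunit factors tested 7 were higher in the ICM than the TE at E4 (63.6%, against 15.8% of all genes). At D10 2 of 11 were higher in the ICM (18.2%, against 12.9% of all genes). Wdr43, of the complex that first binds the rRNA precursor (ENSMUSG00000041057, chromosome 17, 71615895 to 71659031, plus strand), measured 323, 213, 199, 212 and 209 CPM in the D10 ICM, 179, 126, 138, 171 and 118 CPM in the D10 TE, 273, 282, 271, 219 and 279.5 CPM in the E4 ICM and 109, 108, 99.8, 114 and 50.1 CPM in the E4 TE. The ICM libraries of each time were above all TE libraries of that time. The log2 difference of Wdr43 was 0.65 ± 0.20 (SE, adjusted p = 0.0167) at D10 and 1.42 ± 0.21 (SE, adjusted p = 1.46e-05) at E4. D10 ICM library 1 was the highest of its group, and without it the D10 difference was 0.50 and did not pass (adjusted p = 0.0703). Utp4 of the same complex was higher in the ICM by 0.68 ± 0.23 at D10 and 1.10 ± 0.25 at E4 (adjusted p = 0.033 and 0.00124), and the D10 call ended without D10 ICM library 1, 2 or 5 or D10 TE library 2 or 3 (adjusted p up to 0.0844). Heatr1, a large scaffold of that complex, was higher in the E4 ICM by 0.82 ± 0.28 (SE, adjusted p = 0.0274). This call ended without E4 ICM library 1, 2, 3 or 4 or E4 TE library 2, 3 or 4 (adjusted p up to 0.102). Nat10, which acetylates cytidines of rRNA, was higher in the E4 ICM by 0.91 ± 0.35 (SE, adjusted p = 0.0472). The Nat10 call held without D10 ICM library 3, E4 ICM library 4 or E4 TE library 4, ended without any other single library (adjusted p up to 0.132) and ended with litter as a replicate block (log2 0.87, adjusted p = 0.0709).

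Of 14 large-subunit factors tested 9 were higher in the ICM than the TE at E4 (64.3%, against 15.8% of all genes). At D10 1 of 14 was higher in the ICM (7.14%, against 12.9% of all genes). Nop2, a cytosine methyltransferase of large-subunit rRNA (ENSMUSG00000038279, chromosome 6, 125131909 to 125144753, plus strand), measured 80.8, 42.8, 11.1, 55.6 and 32.5 CPM in the D10 ICM, 51.1, 42.8, 32.1, 36.7 and 38.2 CPM in the D10 TE, 127, 102, 99.6, 106 and 112 CPM in the E4 ICM and 57.5, 16.6, 34.1, 29.9 and 21.5 CPM in the E4 TE. The E4 ICM libraries were above every library of the other 3 groups. The log2 difference at E4 was 1.77 ± 0.32 (SE, adjusted p = 0.000141), and at D10 it did not pass. Pes1, Bop1 and Wdr12 form 1 complex that large-subunit maturation needs. In the E4 ICM they were higher by 0.75 ± 0.25, 1.18 ± 0.29 and 0.98 ± 0.27 (adjusted p = 0.021, 0.00279 and 0.00728). At D10 Pes1 was higher in the ICM by 0.68 ± 0.23 (SE, adjusted p = 0.0325), and Bop1 and Wdr12 did not pass. The Pes1 call at D10 ended without D10 ICM library 2, 3 or 4 or D10 TE library 3 or 5 (adjusted p up to 0.102), and that at E4 without E4 ICM library 1 or E4 TE library 4 or 5 (adjusted p up to 0.0773). Nip7, a factor of late rRNA processing, was higher in the E4 ICM by 1.17 ± 0.23 (SE, adjusted p = 0.000409).

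With each library left out in turn, 19 of the 28 calls at E4 and 4 of the 11 at D10 held throughout. The D10 count was 7 without D10 ICM library 1 and 6 without D10 TE library 3. With litter as a block the count was 14 of 44 at D10 and 30 at E4. The shares of all genes given above are those without the block. The genes that passed in the ICM against the TE with the replicate block and not without it were Gnl3, Mybbp1a and Nop16 at D10 and Gnl3, Noc4l and Nhp2 at E4. Nop16, a large-subunit factor, had a log2 difference of 0.65 with the block (adjusted p = 0.0363), Noc4l, a small-subunit factor, one of 0.65 (adjusted p = 0.047) and Nhp2 one of 0.66 (adjusted p = 0.0151).

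**Figure D3:**
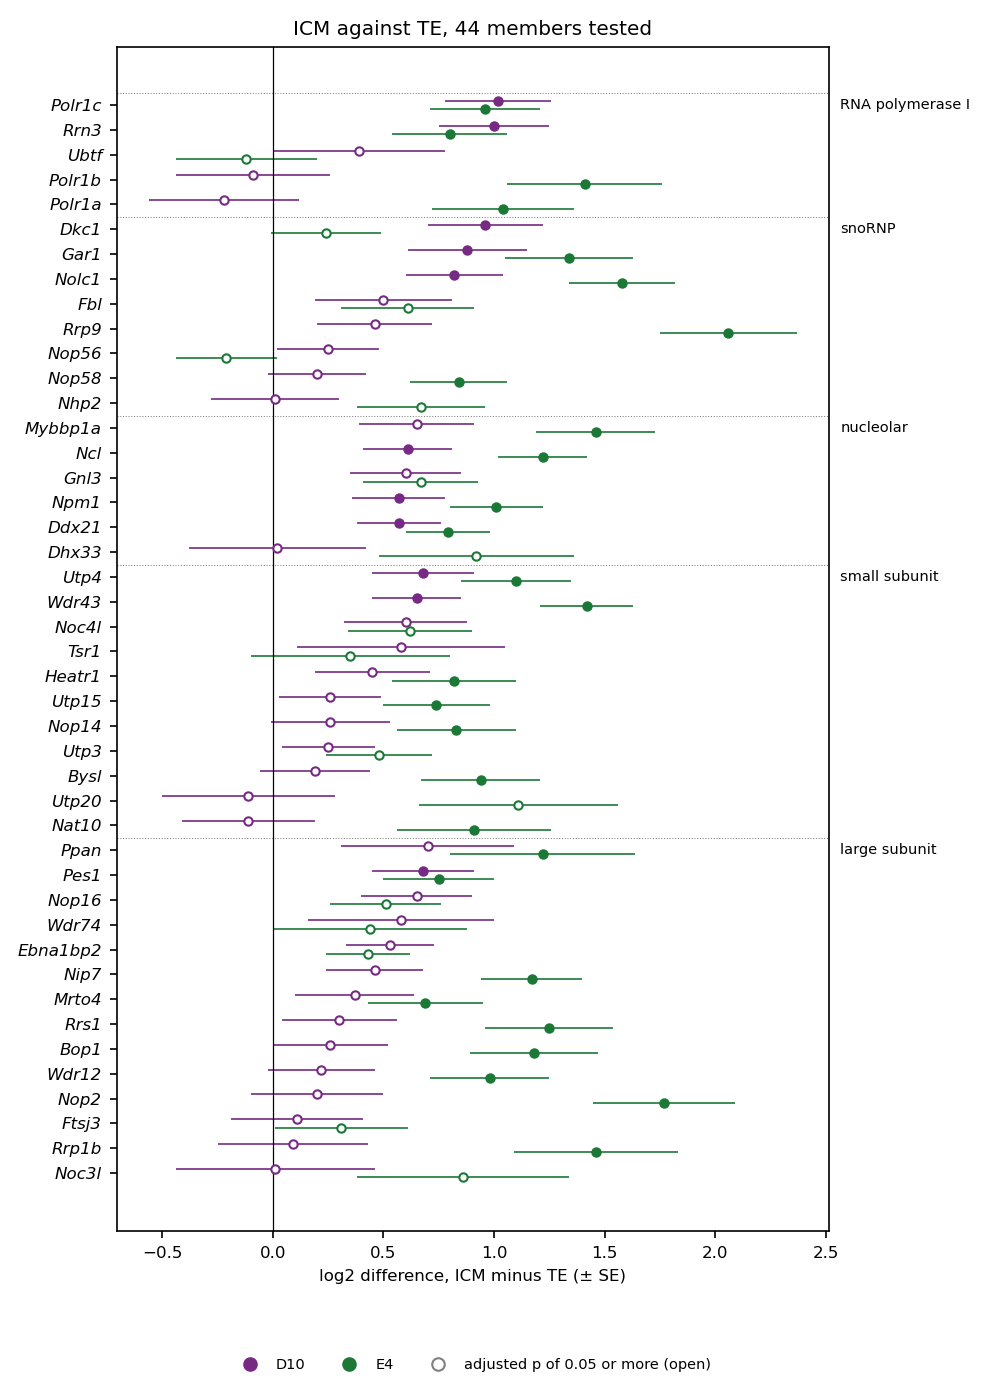
Log2 difference (ICM minus TE, ± SE) of the 44 ribosome biogenesis genes tested, by role, at D10 and at E4. Filled points passed at an adjusted p under 0.05 and open points did not. At E4 28 points are filled and all of these lie right of 0, and at D10 11 are filled, also right of 0.

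Promoter sequences of Nop2, Rrn3 and Nolc1 are shown because these genes were higher in the E4 ICM and hold letters bound by factor families that are known to act on ribosome biogenesis genes. Each line gives the 250 bases before the RefSeq start site (RefSeq, GRCm38.p6, 5′ to 3′, all on the plus strand). Capitals mark the E-box CACGTG in Nop2 and Rrn3 and the ETS-family motif CCGGAAG in Nolc1. The Nop2 line also holds CCGGAAG, left in lower case, and the wider window counted below holds it in Rrn3 as well.
Nop2, chr6:125131633-125131882: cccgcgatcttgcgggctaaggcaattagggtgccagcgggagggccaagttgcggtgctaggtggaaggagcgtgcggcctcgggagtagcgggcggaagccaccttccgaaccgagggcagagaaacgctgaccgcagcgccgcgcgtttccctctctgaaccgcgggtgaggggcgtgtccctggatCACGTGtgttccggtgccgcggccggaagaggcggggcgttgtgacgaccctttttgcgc
Rrn3, chr16:13780449-13780698: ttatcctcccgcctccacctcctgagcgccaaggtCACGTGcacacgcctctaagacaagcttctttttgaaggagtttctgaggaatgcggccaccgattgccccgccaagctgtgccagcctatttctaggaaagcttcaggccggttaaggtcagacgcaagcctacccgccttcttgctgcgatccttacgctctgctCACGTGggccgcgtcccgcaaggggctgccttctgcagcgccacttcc
Nolc1, chr19:46075597-46075846: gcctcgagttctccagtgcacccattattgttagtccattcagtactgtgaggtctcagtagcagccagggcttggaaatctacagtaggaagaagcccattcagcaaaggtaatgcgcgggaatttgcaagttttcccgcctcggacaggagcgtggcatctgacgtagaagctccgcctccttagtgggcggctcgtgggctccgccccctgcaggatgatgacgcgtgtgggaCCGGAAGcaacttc
The E-box starts 60 bases before the start site in Nop2 and 215 and 48 bases before it in Rrn3, and the ETS motif starts 14 bases before it in Nolc1. In windows of 250 bases before to 50 after the start, searched on both strands, the E-box was found in 9 of the 42 genes with an entry (21.4%), against 8.09% of all 27025 genes with an entry and 13.1% of the 5457 of those that were tested. CCGGAAG was found in 17 of 42 (40.5%), against 9.93% of all genes and 24.2% of those tested. TCGCGAGA was found in 9.52% of the 42 (all genes 1.13%, tested genes 3.65%), the GC box GGGCGG in 76.2% (38.2% and 72.9%) and CCAAT in 23.8% (41.1% and 43.3%). The E-box was present in 6 of 25 genes that were higher in the E4 ICM and in 3 of 15 tested genes that did not pass, and CCGGAAG in 9 of 25 and 6 of 15. These matches are a description of letters in the windows, and the motifs were chosen with the results known.

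Between E4 and D10 the catalytic subunits of RNA polymerase I and Ubtf fell in the ICM. Of 44 genes tested 0 were higher and 12 lower in the D10 ICM than in the E4 ICM (27.3% lower), while 13.7% of all genes were higher and 9.97% lower, 23.7% in either direction. At an unadjusted p under 0.05, too, 0 were higher, and DESeq2 and limma voom called 0 higher. The median log2 difference, D10 minus E4, was -0.49 over the 44 genes and 0.00 over all genes, and in 6 of the 44 every D10 library lay below every E4 library, against 6.45% of all genes. Without scaling between libraries the median of all genes moved to -0.20 and that of the 44 genes to -0.69, with 17 lower, and the calls over all genes turned to 701 higher and 1111 lower, against 951 and 692.

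Polr1a fell to 23.5 ± 8.2 CPM in the D10 ICM, against 65.5 ± 15.2 CPM in the E4 ICM (SD, n = 5 each), a log2 difference of -1.61 ± 0.33 (SE, adjusted p = 0.000943). Polr1b fell to 30.5 ± 18.0 CPM in the D10 ICM, against 67.7 ± 12.3 CPM in the E4 ICM, a log2 difference of -1.36 ± 0.34 (SE, adjusted p = 0.00519). The D10 and E4 libraries of Polr1a did not overlap, and those of Polr1b did through D10 ICM library 1. Ubtf (ENSMUSG00000020923, chromosome 11, 102304560 to 102319742, minus strand) measured 109, 23.1, 22.2, 26.2 and 13.9 CPM in the D10 ICM, 21.9, 28.5, 22.1, 36.7 and 24.6 CPM in the D10 TE, 95.1, 149, 153, 82.7 and 138 CPM in the E4 ICM and 115, 124, 139, 112 and 200.3 CPM in the E4 TE. In both tissues its D10 libraries were low and its E4 libraries high, with 1 exception, D10 ICM library 1, which lay within the E4 range. The log2 difference of Ubtf was -1.80 ± 0.36 (SE, adjusted p = 0.000775) in the ICM, and -2.42 without that library. These values rest on few counts. Polr1a, Polr1b and Ubtf had 44, 48 and 69 counts over the D10 ICM libraries and 117, 114 and 210 over the E4 ICM libraries. Of the 5 D10 ICM libraries 1, 3 and 2 were over the minimum of the count filter, and all 5 E4 ICM libraries were. The counts of Polr1b are uncertain, as given above. Polr1c and Rrn3 did not pass, so 3 of the 5 RNA polymerase I genes tested fell in the ICM (60%, against 9.97% of all genes).

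Genes of the other 4 roles also fell in the ICM. Among snoRNP genes Fbl had a log2 difference of -1.03 ± 0.30 (SE, adjusted p = 0.0129) and Nhp2, of the box H/ACA core, one of -0.93 ± 0.29 (SE, adjusted p = 0.0214). These made 2 of 8 snoRNP genes (25%, against 9.97% of all genes). The Nhp2 call ended without D10 ICM library 3 or 5 or E4 ICM library 1 (adjusted p up to 0.0677). Among nucleolar proteins Mybbp1a had a difference of -0.90 ± 0.26 (SE, adjusted p = 0.0121), a call that ended without D10 ICM library 2 (adjusted p = 0.0612). Ncl had one of -0.55 ± 0.20 (SE, adjusted p = 0.0452), and this call held only without D10 ICM library 1 or E4 ICM library 2 or 4 and ended without any other single library (adjusted p up to 0.197). Nop14 and Utp15, small-subunit factors, had differences of -0.86 ± 0.26 and -0.67 ± 0.23 (adjusted p = 0.0189 and 0.0361). The Nop14 call ended without D10 ICM library 2 (adjusted p = 0.088), and the Utp15 call without D10 ICM library 1, 2 or 3 or any 1 of the 5 E4 ICM libraries (adjusted p up to 0.143). Among large-subunit factors Nop2 had a difference of -1.22 ± 0.29 (SE, adjusted p = 0.00357), Mrto4, which prepares the ribosomal stalk, one of -1.05 ± 0.26 (SE, adjusted p = 0.00445), and Ebna1bp2 one of -0.67 ± 0.19 (SE, adjusted p = 0.0137).

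Markers of the cell lineages also differed between the times in the ICM, and not all in the same direction. The summed level of 12 epiblast markers was 1174 to 1822 CPM in the D10 ICM and 2603 to 4058 CPM in the E4 ICM, and 7 of the 11 tested were lower at D10. That of 12 primitive endoderm markers was 8055 to 11193 CPM in the D10 ICM and 2010 to 4663 CPM in the E4 ICM, with 6 of 11 tested higher and 1 lower. That of 12 trophectoderm markers was 4338 to 6559 CPM in the D10 ICM and 2800 to 4197 CPM in the E4 ICM, with 4 of 12 higher. Their part in the differences of the ribosome biogenesis genes was not tested. Of the 12 calls 7 held with each library left out in turn, and without the E4 litters with a zona 7 genes were lower.

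In the TE ribosome biogenesis genes moved in both directions. Of 44 tested 5 were higher and 5 lower at D10 than at E4 (11.4% each), while 11.9% of all genes were higher and 9.89% lower, 21.8% in either direction, so the share called was close to that of all genes. The median log2 difference was 0.05 over the 44 genes and 0.02 over all genes. Groups without overlap were found in 3 genes with D10 above and 4 with D10 below, against 8.67% and 6.5% of all genes. Ubtf had a log2 difference of -2.32 ± 0.35 (SE, adjusted p = 3.59e-05), the change of smallest adjusted p among the 44 genes in this comparison, and passed with every library left out in turn. Dkc1 had a difference of -1.10 ± 0.26 (SE, adjusted p = 0.0031), Ebna1bp2 one of -0.77 ± 0.20 (SE, adjusted p = 0.00671), Fbl one of -0.92 ± 0.31 (SE, adjusted p = 0.0344) and Nop56 one of -0.67 ± 0.22 (SE, adjusted p = 0.0337). The Fbl call ended without D10 TE library 1, 2 or 3 or E4 TE library 4 or 5 (adjusted p up to 0.121), and the Nop56 call without D10 TE library 2, 3, 4 or 5 or E4 TE library 1, 2 or 4 (adjusted p up to 0.128).

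Rrp9 rose in the TE to 64.8 ± 18.9 CPM at D10, against 27.8 ± 11.3 CPM at E4 (SD, n = 5 each), with no overlap between the times. Its log2 difference was 1.27 ± 0.32 (SE, adjusted p = 0.00476), and without the E4 litters with a zona it was 1.05 and did not pass (adjusted p = 0.0622). Wdr12 was higher by 0.84 ± 0.26 (SE, adjusted p = 0.0226), Bop1 by 0.82 ± 0.28 (SE, adjusted p = 0.0408), Nat10 by 0.95 ± 0.34 (SE, adjusted p = 0.0437) and Utp3, a small-subunit factor, by 0.64 ± 0.23 (SE, adjusted p = 0.0462). None of these 4 held with every library left out in turn. The Wdr12 call ended without D10 TE library 2 or 5 or E4 TE library 2 or 3 (adjusted p up to 0.0661), and the Bop1 call without D10 TE library 1, 2 or 4, E4 ICM library 1, 2 or 4 or E4 TE library 1, 2 or 3 (adjusted p up to 0.13). The Nat10 call ended without D10 ICM library 1 or 4, D10 TE library 2, 3 or 5, E4 ICM library 1, 2 or 3 or E4 TE library 1, 2 or 5 (adjusted p up to 0.117). The Utp3 call held only without D10 TE library 2 or E4 TE library 5 (adjusted p up to 0.185 without the others). The count of higher genes was 1 to 3 without D10 ICM library 4, any of the 5 D10 TE libraries, E4 ICM library 1, 2, 3 or 4 or E4 TE library 1, 2 or 3, and 0 without the E4 litters with a zona. Without scaling it was 2, with 5 lower. Polr1a lay at 16.3 to 31.4 CPM in the D10 TE and 17.9 to 50.1 CPM in the E4 TE, and Polr1b at 22.7 to 35.5 CPM in the D10 TE and 14.6 to 41.5 CPM in the E4 TE, and neither passed. In the TE the epiblast sum was 575 to 1102 CPM at D10 and 1009 to 3695 CPM at E4. Dppa5a, which went against that list, averaged 594 CPM of it at D10 and 2250 CPM at E4. The primitive endoderm sum was 2666 to 3919 CPM at D10 and 1054 to 1490 CPM at E4. Dab2, which went against that list, averaged 2595 CPM of it at D10 and 952 CPM at E4. Of 11 epiblast markers tested 1 was higher and 1 lower in the TE at D10, and of 11 primitive endoderm markers 2 were higher and 0 lower. The part of these in the differences was not tested.

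**Figure D4:**
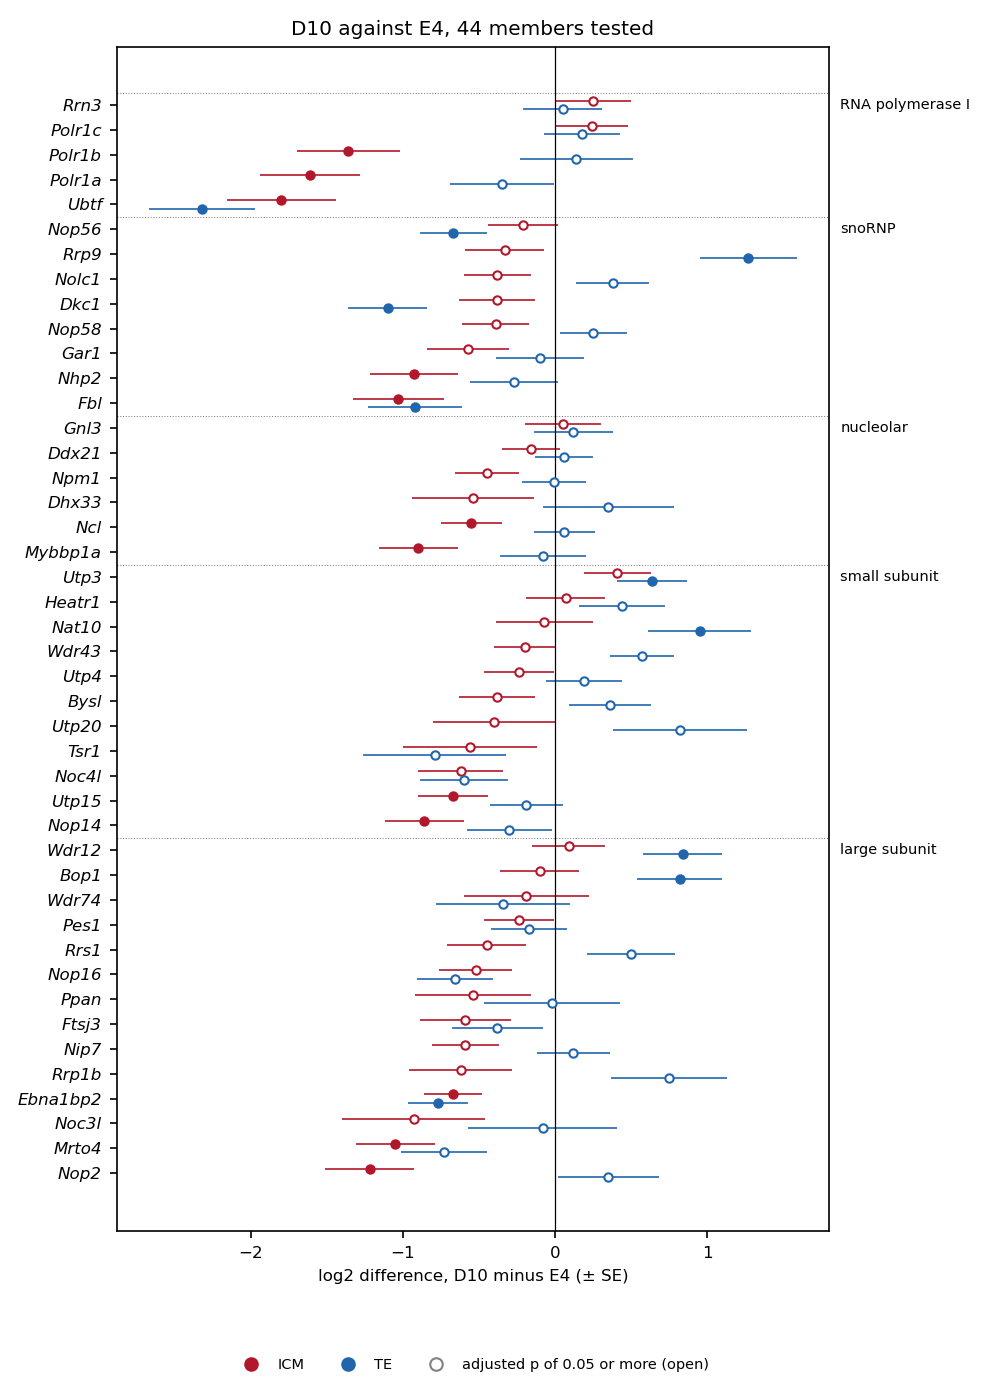
Log2 difference (D10 minus E4, ± SE) of the 44 ribosome biogenesis genes tested, by role, in the ICM and in the TE. Filled points passed at an adjusted p under 0.05 and open points did not. In the ICM 12 points are filled, all left of 0, and in the TE 5 are filled on each side, with Ubtf the furthest left in both tissues.

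Whether the difference between D10 and E4 itself differed between the tissues was tested by the interaction of tissue and time. Of 44 genes 2 were lower in this test and 0 higher (4.55%), while 3.15% of all genes were higher and 1.83% lower, 4.98% in either direction. At an unadjusted p under 0.05, too, 0 of the 44 were higher, and DESeq2 and limma voom called 0 higher, with 2 and 4 lower. The share of all genes at that unadjusted threshold was not counted. The median was -0.50 over the 44 genes and -0.02 over all genes. For Rrp9 the change in the ICM minus that in the TE was -1.61 ± 0.41 (SE, adjusted p = 0.0212), and for Nop2 it was -1.57 ± 0.44 (SE, adjusted p = 0.0358). Nop2 averaged 44.6 ± 26.0 CPM in the D10 ICM, 40.2 ± 7.2 CPM in the D10 TE, 109 ± 10.9 CPM in the E4 ICM and 31.9 ± 15.9 CPM in the E4 TE (SD, n = 5 each). For both genes the E4 TE had the lowest mean of the 4 groups and the E4 ICM the highest. The Rrp9 test did not pass without D10 TE library 4 or E4 TE library 2 or 4 (adjusted p up to 0.0687), and that of Nop2 passed only without D10 ICM library 1, 3 or 4, D10 TE library 3 or E4 TE library 1 (adjusted p up to 0.0834 without each of the others). With litter as a replicate block Rrp1b, a large-subunit factor, passed as well (log2 -1.39, adjusted p = 0.0375, and 0.124 without the block). Polr1a and Polr1b did not pass the interaction test, although each fell in the ICM and did not pass in the TE (adjusted p = 0.127 and 0.0836).

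Other genes of the pathway were counted in the same comparisons. Of 125 further biogenesis genes of the count table, 108 were tested. In the ICM against the TE 15 were higher and 2 lower at D10 (13.9% higher, against 12.9% of all genes), and 45 were higher and 1 lower at E4 (41.7% higher, against 15.8% of all genes, median log2 difference 0.67). Among the 45 higher at E4 was Ruvbl2, a helicase of snoRNP assembly, with a log2 difference of 1.77 ± 0.27. Tcof1, treacle, a partner of RNA polymerase I, had one of 1.05 ± 0.24, and Tbl3, a small-subunit factor, one of 1.91 ± 0.41. The 1 lower at E4 was Zfp622, a large-subunit factor (-1.11 ± 0.23). The 2 lower at D10 were the small-subunit factors Bms1 (-1.20 ± 0.27) and Ltv1 (-0.95 ± 0.18). Of the 42 further small-subunit factors 1 was higher and 2 lower at D10 (2.38% and 4.76%, against 12.9% and 12.6% of all genes). In D10 against E4, 1 of the 108 was higher and 24 lower in the ICM (22.2% lower, against 9.97% of all genes). In the TE 7 were higher and 5 lower (6.48% and 4.63%, against 11.9% and 9.89% of all genes). In the ICM Polr1f, a further RNA polymerase I subunit, had a log2 difference of -1.28 ± 0.21 and Dnttip2, a small-subunit factor, one of -1.01 ± 0.23. The 1 higher in the ICM was Nop53, a large-subunit factor (0.91 ± 0.22). Nop53 was also higher in the D10 TE than in the E4 TE (1.60 ± 0.24). Of the 5 subunits that RNA polymerases I, II and III share, 3 were lower in the D10 ICM than in the E4 ICM (60%, against 9.97% of all genes). These were Polr2f (-1.21 ± 0.25), Polr2h (-1.48 ± 0.31) and Polr2l (-1.23 ± 0.33), and the other 2 did not pass. In the ICM against the TE 1 of the 5, Polr2f, was higher at E4 (20%, against 15.8% of all genes), and 0 passed at D10. The Polr2f call at E4 ended in 14 of the 20 fits with 1 library left out (adjusted p up to 0.122). In the TE 2 of the 5 were lower at D10 (40%, against 9.89% of all genes), namely Polr2k (-1.32 ± 0.37, adjusted p = 0.0112) and Polr2h (-0.96 ± 0.32, adjusted p = 0.0341). The Polr2k call ended without E4 TE library 3 (adjusted p = 0.0709), and that of Polr2h in the TE without D10 TE library 1, 3 or 4 or E4 TE library 1 or 2 (adjusted p up to 0.0892).

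Between the tissues ribosomal protein genes were called higher in shares slightly below those of all genes, and called lower in much smaller shares. Their summed level averaged 110600 ± 27300 CPM in the D10 ICM and 83720 ± 18450 CPM in the D10 TE, with overlapping ranges. At E4 the averages were 75270 ± 5669 CPM in the ICM and 73010 ± 9499 CPM in the TE (SD, n = 5 each, not tested). At D10 9 of 76 genes tested were higher in the ICM (11.8%, against 12.9% of all genes), and the other 67 did not pass. Thus 0 were lower, against 12.6% of all genes, and the median log2 difference was 0.14, against 0.01 over all genes. At E4 10 were higher and 4 lower (13.2% and 5.26%, against 15.8% and 15.4% of all genes, median log2 difference 0.04). In D10 against E4, 17 were higher and 4 lower in the ICM (22.4% higher, against 13.7% of all genes, median 0.15), and 8 were higher and 6 lower in the TE (10.5% higher, against 11.9%). The smallest adjusted p in the ICM was that of Rps15, with a log2 difference of 2.30 ± 0.21 (adjusted p = 5.39e-08). Of 15 genes of RNA polymerase III and its factors 1 was higher in the ICM than in the TE at D10 (6.67%, against 12.9% of all genes). At E4 4 were higher in the ICM (26.7%, against 15.8% of all genes). In the D10 ICM 1 was lower than in the E4 ICM (6.67%, against 9.97% of all genes). The others did not pass in these comparisons. The gene higher at D10 was Polr3e, an RNA polymerase III subunit, by 1.04 ± 0.35 (adjusted p = 0.0286), a call that ended without D10 ICM library 1 or D10 TE library 1 or 3 (adjusted p up to 0.0872). Of 10 genes of the Myc network 3 were tested. Myc, a transcription factor known to drive ribosome biogenesis genes, was lower in the D10 ICM than in the E4 ICM, with a log2 difference of -1.58 ± 0.51 (adjusted p = 0.0246), and Mycn, its relative, was higher in the ICM than in the TE at D10 by 0.98 ± 0.27 (adjusted p = 0.00759). The Myc call ended without D10 ICM library 4 or E4 ICM library 1 (adjusted p up to 0.0895).

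**Figure D5:**
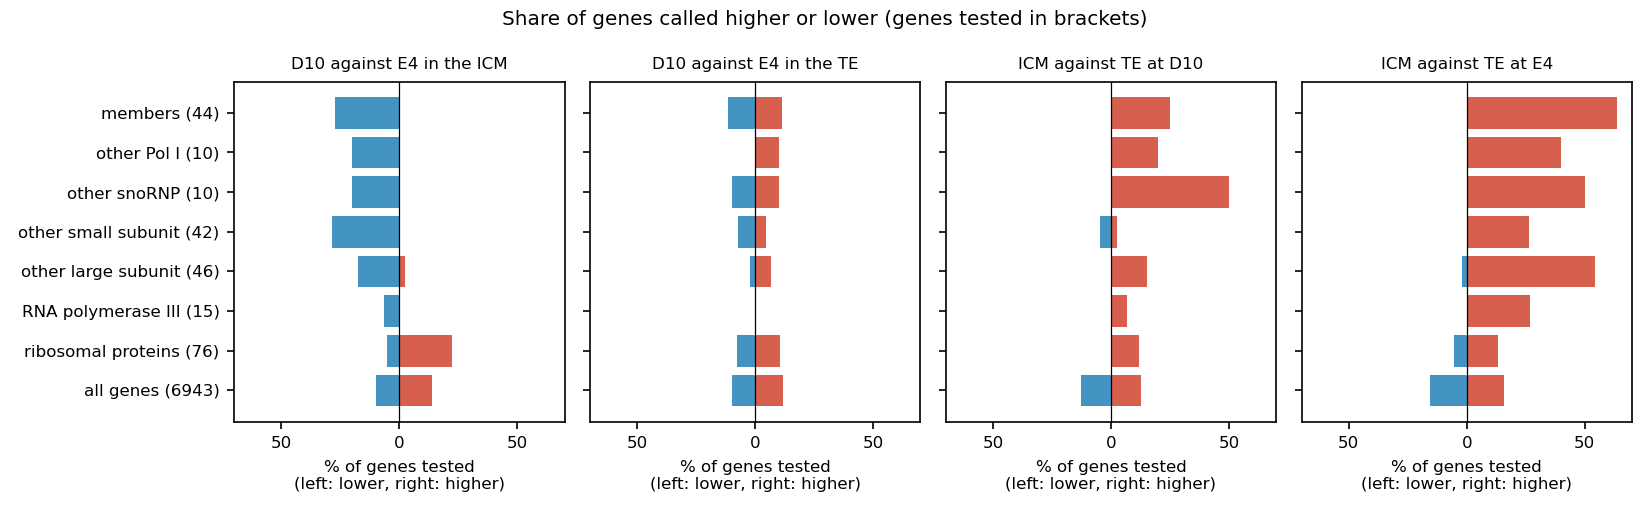
Percentage of tested genes called higher (right) and lower (left) in each of 4 comparisons, for the 44 ribosome biogenesis genes, other genes of the pathway, RNA polymerase III, ribosomal proteins and all 6943 genes. Numbers in brackets are genes tested. At E4 63.6% of the 44 genes are higher in the ICM, against 15.8% of all genes.

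Polr1e, Rrp12 and Noc2l had 105, 95 and 116 counts over the 20 libraries and did not pass the count filter. Polr1e, an RNA polymerase I subunit, measured 14.3, 14.8, 16.6, 19.9 and 9.3 CPM in the D10 ICM, 7.3, 24.5, 8.0, 12.2 and 2.7 CPM in the D10 TE, 12.7, 20.9, 20.8, 22.7 and 12.9 CPM in the E4 ICM and 11.5, 8.3, 4.9, 0.0 and 14.3 CPM in the E4 TE. Rrp12, a factor of subunit export, lay at 0.0 to 16.8 CPM in the D10 ICM, 2.7 to 19.2 CPM in the D10 TE, 4.3 to 16.5 CPM in the E4 ICM and 5.8 to 12.4 CPM in the E4 TE. Noc2l, a factor of early large-subunit assembly, lay at 4.2 to 42.8 CPM, 2.7 to 23.7 CPM, 13.1 to 37.1 CPM and 0.0 to 17.9 CPM in the same groups. In an edgeR fit without the filter the smallest adjusted p of the 3 genes over the 5 comparisons was that of Polr1e in the ICM against the TE at E4 (log2 difference 1.60 ± 0.65, SE, adjusted p = 0.0982). Each of the 3 had a library with 0 counts, where up to 3 counts remain possible, a limit that covers counting error only. This limit was 5.92 CPM for Polr1e in E4 TE library 4. It was 13.2 CPM for Rrp12 in D10 ICM library 5 and 12.5 CPM for Noc2l in E4 TE library 2. Of the 44 genes tested 42 had at least 1 library over the count minimum in each of the 4 groups, and 0 had such libraries in 1 group only. Tsr1 and Wdr74 had 0 in the D10 TE. For some genes the E4 ICM held more of these libraries than any other group. In the D10 ICM, D10 TE, E4 ICM and E4 TE, Noc3l had 1, 1, 4 and 1, Dhx33 2, 2, 4 and 1, and Ppan 3, 1, 5 and 1. In the same order Polr1a had 1, 2, 5 and 3, Polr1b 3, 3, 5 and 2, and Nop14 4, 4, 5 and 4. Besides Polr1b, 10 of the 47 genes share near-identical 3′ sequence with other annotated genes, among them Noc3l with 43, Nop58 with 16 and Npm1 with 7. At the 3′ end 9 genes overlap an exon on the opposite strand, among them Nop56, Dkc1, Nhp2, Mybbp1a and Bop1, and whether strand was used in counting is not given in the sources used here, so reads of the partners cannot be told apart.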

How the data were processed

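Polyadenylated RNA was measured by BRB-seq, in which each library gets its barcode from the oligo-dT primer of reverse transcription and the replicates are pooled before PCR. Per the labels' protocols, the first read carried the library barcode (9 bases) next to a UMI, a molecular identifier (10 bases), and the second read gave 81 bases of insert. The authors deposited raw counts per gene and library, for 21470 genes in 20 libraries. The submitters' processing notes name the builds GRCm38 and GRCh38 and the tools featureCounts 2.0.1, HISAT2 2.2.1, Trim Galore 0.6.7 and UMI-tools. How UMIs and strand were handled is not given in the sources used here, nor is the annotation behind the counts.

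Counts were tested as deposited with edgeR 4.0.16 (R 4.3.3): filterByExpr with a minimum count of 10, TMM scaling, and 1 quasi-likelihood fit of the 4 groups of 5 libraries without a block. P-values were adjusted by Benjamini-Hochberg over all 6943 genes tested, with 0.05 as the threshold for a call. A standard error is the log2 difference divided by the square root of its F value. CPM values use the TMM-scaled library sizes. Depths ran from 144276 to 1010354 counts, so that 3 counts, the limit a count of 0 allows, were 2.97 to 20.8 CPM. Libraries were grouped by the labels, and litter and zona came from the authors' barcode list. Libraries of ICM and TE with the same number shared a litter within a time by that list, and their deviations from the group means had a mean correlation across genes of 0.168 at D10 (lowest of 5 pairs -0.0302) and 0.177 at E4 (lowest 0.104). Since the shared litter comes from the list, litter was a replicate block in an alternative for the tissue comparisons and the interaction. Between times the litters differ and pair nothing. Replicates differed beyond sampling noise (chi-square per degree of freedom 2.58 or more in 40 pairs). The alternatives were RLE or no scaling, DESeq2 1.42.0, limma 3.58.1 (voom), no count filter or a minimum of 30, thinning to 144276 counts, only the groups compared, the litter block, the E4 litters with a zona left out, each library left out, and, chosen after seeing the data, mitochondrial genes left out and D10 ICM libraries 1 and 3 left out.

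The genes and lists were chosen with earlier results of these data known. The genes named are 16 canonical factors, up to 2 of smallest adjusted p per role and comparison, any that went against most, and those not tested, and from other lists up to 3 of smallest adjusted p among those called. Gar1, Gnl3, Dhx33, Noc3l, Nop16, Noc4l, Rrp1b, Dppa5a, Dab2 and Elf5 were named after their values were seen. Annotation was GENCODE M21 on GRCm38, and promoters came from RefSeq (GRCm38.p6).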

Additional observations from a re-analysis of the deposited data

Results flagged for a closer look

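In 9 of 128 groups of 5 libraries, 1 library stood apart from the others by Dixon's test at the 95% level, and chance gives about 1 in 20 such groups. Ubtf in D10 ICM library 1 measured 109.3 CPM, with 26.2 CPM or less in the other 4 libraries, and Wdr43 in the same library 323.2 CPM, with 212.6 CPM or less in the others. In the E4 ICM, Pes1 measured 145.8 CPM in library 1 (105.5 CPM or less in the others), Utp4 measured 240.9 CPM in library 3 (173.7 CPM or less) and Wdr43 was low at 219.2 CPM in library 4 (271 CPM or more). In the E4 TE, library 5 held Rrn3 at 135.9 CPM (95.4 CPM or less in the others), Mrto4 at 85.9 CPM (49.8 CPM or less) and Wdr43 low at 50.1 CPM (99.8 CPM or more), and library 1 held Nop58 at 385.5 CPM (243 CPM or less). Rrp9 and Nop2 were singled out because the D10 minus E4 difference in the ICM minus that in the TE passed the test, at -1.61 and -1.57 on the log2 scale.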

How the results depend on the processing

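No direction turned in any alternative for the 63 differences of ribosome biogenesis genes that passed, and 1641 repeats of them still passed and 330 did not. For these 63, with litter as a replicate block the call of Nat10 at E4 ended and no other did, and other genes passed only with it, with 14 of the genes higher in the ICM at D10, 30 at E4 and 3 lower in the interaction. The shares of all genes in the text are those without the block. Each library left out in turn gave 9 to 12 genes lower in the D10 ICM than in the E4 ICM, 1 to 4 higher and 3 to 6 lower in the D10 TE than in the E4 TE (3 without D10 TE library 2 or 3 or E4 TE library 4), 6 to 12 higher in the ICM at D10, 21 to 27 at E4 and 0 to 3 lower in the interaction, and counts of 0 stayed 0. Over all genes it gave 839 to 1049 higher and 487 to 685 lower (time, ICM), 674 to 855 and 604 to 781 (time, TE), 786 to 1001 and 710 to 899 (tissue, D10), 860 to 1096 and 1000 to 1180 (tissue, E4), and 194 to 256 and 83 to 128 (interaction, 83 without D10 ICM library 2). Depth limited the counts: thinned to 144276 counts per library, 34 of the genes and 4030 in all were tested, with 3 lower (time, ICM), 0 higher and 1 lower (time, TE), 5 and 10 higher in the ICM at D10 and E4, and 0 in the interaction. Over all genes thinning left 275 higher and 146 lower, 208 and 170, 268 and 255, 284 and 401, and 46 and 14 in the same order. Without the E4 litters with a zona the E4 tissue calls of Rrn3, Nop14, Utp15, Heatr1, Nat10, Bysl, Pes1 and Mrto4 ended. So did the calls between the times in the ICM of Fbl, Ncl, Nop14, Utp15 and Ebna1bp2. The counts without these litters were 7 lower (ICM), 0 higher and 3 lower (TE) and 0 (interaction), and 379 lower (ICM), 144 higher and 54 lower (interaction) over all genes. With no count filter they were 1 higher and 3 lower (TE), 5 and 18 higher at D10 and E4, with 1474 higher at D10 and 352 higher in the interaction over all genes. A minimum of 30, which tested 3504 genes, gave 531 higher (time, TE), 596 higher and 574 lower (tissue, D10) and 660 higher (tissue, E4). No scaling gave 1111 lower (time, ICM), 2 of the genes higher (time, TE) and 196 lower in the interaction over all genes, limma voom gave 4 of the genes lower in the interaction, only the groups compared gave 3 higher (time, TE), and leaving out D10 ICM libraries 1 and 3 gave 7 higher at D10. Apart from fewer genes tested, the cause of these shifts was not tested.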
